A study of Mus musculus with 12 samples.

Results

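The local handling of thyroid hormone in the newborn skull was described through 7 genes among the 23715 genes with a value. They were *Dio2* and *Dio3*, which encode the activating and the inactivating deiodinase, *Slc16a10*, a transporter, *Thra* and *Thrb*, the nuclear receptors, and *Klf9* and *Hr*, direct target genes. The genes were picked for their function, and they were selected partly on the known summed FPKM of both comparisons, the low level of *Dio2* in P-KO mice included. The members' own levels and fold changes are therefore a description and are given without p-values. Where calls over all genes are counted, the members among them are counted too, and nothing is read from that. FPKM stands for fragments scaled to the length of the transcript and the depth of the library, so levels of different genes can be compared per length. Of the 7 genes, 5 passed the filter on low values (at least 1 FPKM in at least 3 of 12 mice), and *Dio3* and *Thrb* did not.

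The RNA-seq libraries came from 12 newborn C57BL/6 mice, 3 in each of 4 groups, and both mutant lines were compared with their own littermates to learn what the Mediator subunit Med23 and the transcription factor Runx2 do for gene expression in bone. P-KO mice lacked *Med23* (labelled Med23-/-) in cells that had expressed *Prx1-Cre*, a driver active in limb and part of the cranial mesenchyme. P-Ctrl mice were the controls, labelled WT. The paper describes controls of this cross as *Med23* fl/fl littermates and the knockouts as *Med23* fl/fl with *Prx1-Cre*. Cre is thus named for the knockouts only, and its own part was not tested. R-Het mice carried 1 *Runx2* allele (Runx2+/-) in all cells, and R-WT mice were their controls, labelled WT. The tissue is given as calvaria in the labels and as parietal bone at postnatal day 2 in the methods.

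Thyroid hormone reaches bone mainly as the prohormone thyroxine. Type 2 deiodinase removes an iodine from its outer ring inside the cell and so makes triiodothyronine (T3), and type 3 deiodinase removes one from the inner ring and inactivates both. T3 binds receptors that sit on DNA with a retinoid X receptor partner and exchange corepressors for coactivators. In the skeleton TRα is the predominant receptor, and osteoblasts are known to use type 2 deiodinase in mineralization.

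The 250 bases upstream of the annotated start were read from RefSeq (GRCm38.p6), which held such a window for 5 of the 7 members, 6 windows in all. *Thra* and *Hr* were not matched. The windows of *Dio2*, the member with the largest change, and of *Klf9*, the member whose R-Het mice all lay above their controls, are shown because these genes carry the patterns described in most detail here. The *Dio2* window lies at chr12:90739039-90739288 on the minus strand and the *Klf9* window at chr19:23140976-23141225 on the plus strand. Capitals mark a cAMP response element (TGACGTCA) and a TATA element (TATAAA) in *Dio2* and the short form of the cAMP response element (TGACG) in *Klf9*.
Dio2: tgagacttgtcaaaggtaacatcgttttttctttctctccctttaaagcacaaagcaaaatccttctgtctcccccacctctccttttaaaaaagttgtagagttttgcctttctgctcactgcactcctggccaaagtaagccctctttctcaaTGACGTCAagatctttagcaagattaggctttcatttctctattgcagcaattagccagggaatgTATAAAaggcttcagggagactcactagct
Klf9: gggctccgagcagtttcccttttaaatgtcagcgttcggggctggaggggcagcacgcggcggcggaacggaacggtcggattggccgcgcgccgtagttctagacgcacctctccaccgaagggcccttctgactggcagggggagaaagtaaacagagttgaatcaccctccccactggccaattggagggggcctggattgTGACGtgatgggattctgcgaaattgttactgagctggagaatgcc

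Both strands of the 6 windows were searched for 6 motifs. The full cAMP response element was found in *Dio2* alone, at -95 to -88 from the start, and 1.55% of 32851 promoter windows held it. Its short form TGACG, which the full element contains on both strands, was in 17.8% of all windows, and among the members also in *Klf9* at -46 to -42 and in 1 of the 2 *Thrb* windows at -56 to -52. TATAAA (12.4% of all windows) was at -30 to -25 in *Dio2*, at -31 to -26 in *Dio3* and at -167 to -162 in the other *Thrb* window. The thyroid hormone response element as a direct repeat (AGGTCA again after 4 bases) was in no member and in 0.0152% of all windows, and the single unit AGGTCA (14.0%) was at -184 to -179 in the first *Thrb* window. The RUNX motif TGTGGT, present in 14.1% of all windows, was in none of the 6. A match of letters is no proof of a bound site, and a window without them says nothing about the factor.

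Estimated depth was 7800000 to 11700000 fragments per mouse, a rough figure read from the smallest values. *Med23*, the targeted gene, was at 5.32 ± 0.732 FPKM in P-Ctrl and 5.30 ± 0.425 FPKM in P-KO mice (SD, n = 3 each), and *Runx2* was at 31.6 ± 5.39 FPKM in R-WT and 33.5 ± 2.76 FPKM in R-Het mice. These are sums over whole transcripts and cannot show the deleted exons, so neither gene checks its label, and P-KO and R-Het below mean the libraries labelled so. *Xist* was above 1 FPKM in 3 libraries, P-Ctrl 2, P-Ctrl 3 and R-WT 1, so both mutant groups held males only. The osteoblast markers were high in all mice, with sums of 33552 to 35667 FPKM in P-Ctrl, 15592 to 22042 FPKM in P-KO, 29596 to 33356 FPKM in R-WT and 19589 to 25416 FPKM in R-Het mice. Skeletal muscle markers summed to 24.7 to 1423 FPKM in P-Ctrl and 609.6 to 4266 FPKM in P-KO mice, which overlapped, and to 1959 to 5777 FPKM in R-WT and 26.7 to 192 FPKM in R-Het mice, which did not. Muscle had 9 of 10 markers called lower in R-Het and 0 called in P-KO mice, and its part in the values below was not tested. Of the cartilage, erythroid, macrophage and osteoclast, and endothelial markers, 1 passed in each cross, *Col2a1* of cartilage (lower in P-KO) and *Pecam1* of endothelium (lower in R-Het). Each library was 1 mouse. The p-values set a group difference against the spread between mice, which limma moderates over all genes. Sex and muscle were not adjusted for.

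*Dio2* was lower in P-KO mice than in any other group. The gene lies on chromosome 12 (90724552 to 90739038, minus strand, GRCm38), and its transcript has 2 exons. Its level was 31.9, 17.5 and 22.4 FPKM in the 3 P-Ctrl mice and 5.48, 5.63 and 3.70 FPKM in the 3 P-KO mice. Every P-KO mouse thus lay below every P-Ctrl mouse, and the P-KO values were close to each other. The mean went from 23.9 ± 7.30 to 4.94 ± 1.08 FPKM, 79.4% lower, with a difference of -2.05 on the scale of log2(FPKM + 1) (SE 0.23). These values rest on roughly 200 to 283 fragments in P-KO and 1089 to 2075 fragments in P-Ctrl mice.

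In the *Runx2* cross, *Dio2* was at 32.0, 27.2 and 26.9 FPKM in R-WT mice and at 29.1, 12.5 and 24.6 FPKM in R-Het mice. The groups overlapped, since R-Het 1 was above 2 of the 3 R-WT mice, while R-Het 2 and R-Het 3 lay below all of them and R-Het 2 was the lowest. Means were 28.7 ± 2.87 and 22.1 ± 8.61 FPKM, a log2 difference of -0.44 (SE 0.27), which shrank to -0.09 without R-Het 2. The order of the group means was R-WT, P-Ctrl, R-Het and P-KO. Ranges overlapped between the first 3 groups, and the range of P-KO stood apart from that of R-Het. The change in P-KO exceeded that in R-Het by 1.61 on the log2 scale (SE 0.39, coded as a difference of -1.61).

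Among the 5 members that passed the filter, the limma fit called 1 lower in P-KO mice, *Dio2*, against 0.559% of all 13059 genes called lower, 1.01% called higher and 1.57% called in either direction. Of these 205 calls 64.4% were higher in P-KO mice (132 against 73 lower), and with the median-ratio scaling of the mice 39.0% were (53 against 83). Every P-KO mouse lay below every P-Ctrl mouse for 1 of the 5 as well, against 7.68% of all genes, and for 19.6% of all genes the P-KO mice lay above. In R-Het mice limma called 0 of the 5, against 1.49% of all genes called lower, 0.398% higher and 1.89% in either direction. All R-Het mice lay above all R-WT mice for 1 of the 5, *Klf9*, against 10.7% of all genes, and 10.4% lay below. As the choice of the members drew on both comparisons, nothing is read from these counts. *Dio2* kept a negative difference in all 12 alternatives, between -2.49 and -1.83. The value of -2.49 came from male libraries only, where 1 P-Ctrl mouse was left. The call counted above is no test of *Dio2*, as its low level in P-KO mice was known when the members were chosen. This call was also lost without the filter on low values. With a mouse left out it was kept in 1 fit only, that without P-Ctrl 1.

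**Figure D1:**
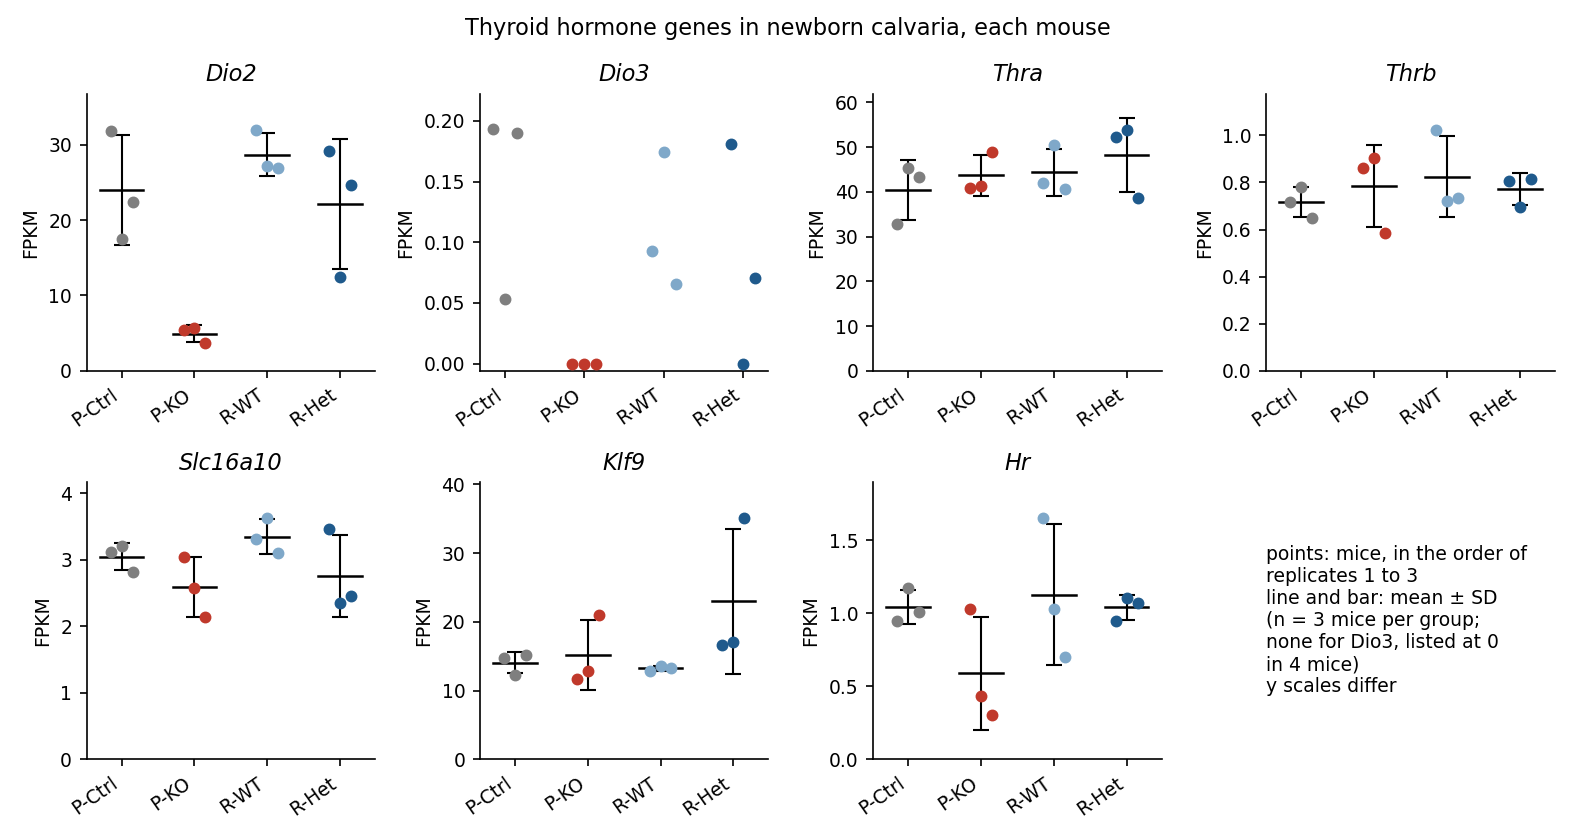
Level of each of the 7 genes in FPKM (y axis, a scale of its own for each gene) in the 4 groups (x axis). Each point is a mouse, and lines with bars are means ± SD of 3 mice, left out for *Dio3*, which was listed at 0 in 4 mice. The 3 P-KO mice sit between 3.70 and 5.63 FPKM for *Dio2*, below all other mice, and R-Het 3 stands at 35.1 FPKM for *Klf9*.

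All 8 markers of bone-forming cells had negative differences in P-KO mice, with a median of -0.48 beside 0.06 over all genes tested, and 1 of them, *Bglap*, passed the test. The other 7 did not, and for 3 of them the groups overlapped. The summed FPKM of the 8 was mostly *Spp1*, *Bglap* and *Col1a1*, with means of 15640, 9736 and 7254 FPKM in P-Ctrl mice. Mean *Runx2* was 35.5 FPKM there. Divided by this sum, *Dio2* was 0.893, 0.514 and 0.668 FPKM per 1000 FPKM of markers in P-Ctrl mice. The quotient was 0.248, 0.286 and 0.237 in P-KO mice. The groups stayed apart on this scale, and the log2 ratio of the means was -1.43. In the *Runx2* cross 4 of the 8 markers were lower and 4 higher (median 0.02, 0 called by limma), and the same quotient was 0.959, 0.868 and 0.907 in R-WT mice and 1.31, 0.491 and 1.26 in R-Het mice, which lay on both sides of the controls, and the log2 ratio of the means turned positive (0.16). Mean *Spp1*, the largest part of the sum, was 17845 FPKM in R-WT and 10491 FPKM in R-Het mice, and its part in the quotient was not tested. *Runx2* itself was at 35.5 ± 4.31 FPKM in P-Ctrl and 26.7 ± 2.64 FPKM in P-KO mice, without overlap. Relative to *Runx2* alone, *Dio2* was 0.838, 0.461 and 0.734 in P-Ctrl and 0.231, 0.204 and 0.129 in P-KO mice. These again did not overlap (log2 ratio of the means -1.85). On this scale it was 1.07, 0.723 and 0.982 in R-WT and 0.849, 0.411 and 0.690 in R-Het mice, which overlapped, and the log2 ratio of the means was negative (-0.51). In bulk tissue fewer cells of a type and less RNA per cell cannot be told apart.

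Other cells known for type 2 deiodinase are astrocytes and brown fat. The 9 astrocyte and neural markers summed to 13.5 to 14.4 FPKM in P-Ctrl and 17.2 to 28.0 FPKM in P-KO mice, and to 12.9 to 16.3 FPKM in R-WT and 14.7 to 19.5 FPKM in R-Het mice. The 6 fat markers summed to 196 to 535 FPKM in P-Ctrl, 445 to 551 FPKM in P-KO, 307 to 459 FPKM in R-WT and 179 to 244 FPKM in R-Het mice, and *Ucp1*, the defining marker of brown fat, was listed at 0 in all P-KO, R-WT and R-Het mice. None of the tested markers in these lists passed in either cross (limma, smallest adjusted p 0.0631, for fat in R-Het).

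*Dio3*, on the same chromosome at 110279230 to 110281097 (plus strand, 1 exon), was near the limit of detection. It was listed at 0.194, 0.0530 and 0.190 FPKM in P-Ctrl mice, at 0 in all 3 P-KO mice, at 0.0931, 0.175 and 0.0658 FPKM in R-WT mice and at 0.181, 0 and 0.0703 FPKM in R-Het mice. The highest value stands for roughly 4.4 fragments, so a level of *Dio3* in P-KO mice was not detectable at this depth, and no fold is given. Its antisense neighbour *Dio3os* was listed at 0.174, 0.0902 and 0.107 FPKM in P-Ctrl and at 0.161, 0.101 and 0.222 FPKM in R-WT mice, and at 0 in all 6 P-KO and R-Het mice. *Dio1*, the deiodinase of liver and kidney, was listed at 0 in all 12 mice. *Dio2* was thus the deiodinase with the highest level in every mouse.

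*Slc16a10* encodes MCT10, which carries T3 and aromatic amino acids across the membrane. Its 2 transcripts on chromosome 10 (40033532 to 40142270, minus strand) summed to 3.11, 3.21 and 2.82 FPKM in P-Ctrl mice and to 3.05, 2.57 and 2.14 FPKM in P-KO mice. They summed to 3.32, 3.63 and 3.10 FPKM in R-WT mice and to 3.46, 2.35 and 2.46 FPKM in R-Het mice. In both crosses 2 of 3 mutants lay below all their controls and the remaining mutant lay among the controls. The log2 differences were -0.18 (SE 0.13) in P-KO and -0.22 (SE 0.14) in R-Het mice, each less than 2 of its standard errors.

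*Thra*, on chromosome 11 (98740776 to 98769006, plus strand), was the most abundant member per length in all 12 mice. It was at 32.8, 45.3 and 43.4 FPKM in P-Ctrl mice and at 40.8, 41.3 and 49.0 FPKM in P-KO mice. In the other cross it was at 42.1, 50.4 and 40.7 FPKM in R-WT mice and at 52.2, 53.9 and 38.7 FPKM in R-Het mice. All 4 groups overlapped, with log2 differences of 0.12 (SE 0.14) in P-KO and 0.11 (SE 0.14) in R-Het mice. The files list 1 *Thra* transcript (98741873 to 98765111, 9 exons), which shares 0 exonic bases with *Nr1d1*, the clock repressor on the opposite strand. Levels of *Nr1d1* were 8.28 to 16.0 FPKM and did not pass the test in either cross (log2 difference -0.28, adjusted p = 0.479 in P-KO, and -0.17, adjusted p = 0.680 in R-Het).

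*Thrb*, on chromosome 14 (17659225 to 18040097, plus strand), was far lower, and its 2 transcripts summed to at most 1.02 FPKM. The sums were 0.718, 0.779 and 0.651 FPKM in P-Ctrl, 0.862, 0.906 and 0.584 FPKM in P-KO, 1.02, 0.719 and 0.732 FPKM in R-WT and 0.806, 0.695 and 0.816 FPKM in R-Het mice. All groups overlapped. The transcript with the upstream start had the higher value of the 2 in every mouse, 0.307 to 0.851 FPKM, and *Thra* was above *Thrb* in all 12 mice.

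*Klf9* encodes a Krüppel-like factor that T3 and glucocorticoids both induce directly. It lies on chromosome 19 (23141226 to 23168129, plus strand). Its level was 14.8, 12.3 and 15.1 FPKM in P-Ctrl mice and 11.7, 12.9 and 21.1 FPKM in P-KO mice. These groups overlapped, with P-KO 3 above all controls, and the log2 difference of 0.06 (SE 0.21) turned to -0.18 without that mouse. In the *Runx2* cross it was at 12.9, 13.5 and 13.3 FPKM in R-WT mice and at 16.7, 17.1 and 35.1 FPKM in R-Het mice. Every R-Het mouse was above every R-WT mouse, and R-Het 3 was well above the other R-Het mice. The log2 difference of 0.67 (SE 0.25) was 0.33 without R-Het 3.

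*Hr*, the corepressor hairless and a T3 target in brain and skin, lies on chromosome 14 (70554056 to 70573548, plus strand). It was at 0.943, 1.17 and 1.01 FPKM in P-Ctrl mice and at 1.03, 0.432 and 0.301 FPKM in P-KO mice. P-KO 2 and P-KO 3 lay below all controls and P-KO 1 lay among them, with a log2 difference of -0.39 (SE 0.20). In the *Runx2* cross it was at 1.65, 1.03 and 0.700 FPKM in R-WT mice and at 0.944, 1.10 and 1.07 FPKM in R-Het mice, which all lay within the range of the controls (log2 difference -0.04, SE 0.18). The 8 epidermis and hair follicle markers, the tissue in which *Hr* is best known, summed to only 3.19 to 5.71 FPKM in the 12 mice, and *Krt25* and *Krt71*, which mark the inner root sheath, were listed at 0 in all P-Ctrl and P-KO mice. P-KO 2 and P-KO 3 rest on roughly 19.2 and 15.3 fragments of *Hr*.

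**Figure D2:**
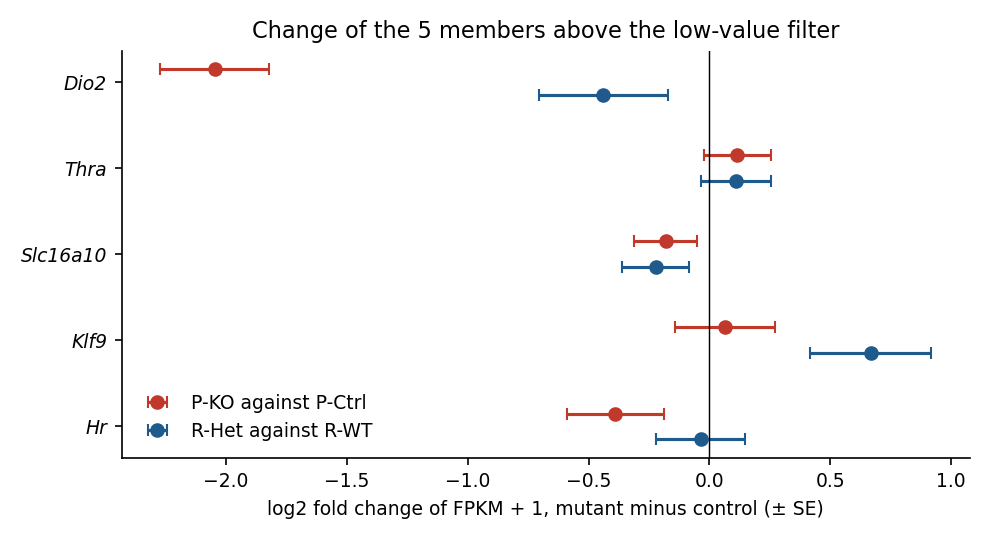
Difference in log2(FPKM + 1) between mutants and controls (x axis, points with bars of ± SE, 3 mice against 3) for the 5 members above the filter on low values (y axis). *Dio2* in P-KO mice lies at -2.05 and *Klf9* in R-Het mice at 0.67, and the other points lie between -0.44 and 0.12.

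Further genes were described through 7 lists and the neighbours *Nr1d1* and *Dio3os*, 78 genes with 68 tested. The lists held genes of thyroid hormone handling and response, and also glucocorticoid-responsive genes (8 tested) and genes of the cAMP pathway (10 tested). In P-KO mice limma called 2 of the 68 lower and 0 higher (7 higher and 12 lower at an unadjusted p under 0.05), or 2.94% against 1.57% of all genes. In R-Het mice it called 1 lower and 0 higher (11 higher and 10 lower at an unadjusted p under 0.05), or 1.47% against 1.89% of all genes. Between the crosses the changes of 20 genes (0.153% of all tested) differed, and 0 of the 68 were among them (limma interaction contrast, 13 at an unadjusted p under 0.05).

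Transport into the cell and storage showed no call among 5 tested genes of 7 in either cross, with list medians of 0.02 in P-KO and 0.09 in R-Het mice beside 0.06 and 0.02 over all genes. *Crym*, the cytosolic T3-binding protein μ-crystallin, was at 7.67, 5.07 and 4.71 FPKM in P-Ctrl and at 17.5, 7.92 and 13.6 FPKM in P-KO mice. All P-KO mice were above the controls, but the difference of 1.00 (SE 0.28) did not pass (limma, adjusted p = 0.112). All 10 muscle markers had positive differences in P-KO mice as well, and their part in this value was not tested. The most negative gene in P-KO was *Slc3a2* (-0.22, adjusted p = 0.277), and the extremes in R-Het were *Slc7a8* (-0.01, adjusted p = 0.989) and *Slc7a5* (0.38, adjusted p = 0.200), all 3 parts of amino acid transporters that also carry T3.

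Proteins that tag type 2 deiodinase for degradation or build selenoproteins showed 0 calls among 11 tested genes of 12 in both crosses. Medians were 0.09 in P-KO and 0.07 in R-Het mice. *Wsb1*, the ubiquitin ligase adaptor for the enzyme, differed by 0.09 in P-KO and 0.06 in R-Het mice. The extremes were *Usp20*, a deubiquitinase (-0.18, adjusted p = 0.368), and *Pstk*, a kinase of selenocysteine synthesis (0.32, adjusted p = 0.105), in P-KO, and *Sephs2* (-0.08, adjusted p = 0.851) and *Eefsec* (0.37, adjusted p = 0.117) of the same pathway in R-Het mice. Message levels say nothing of the turnover of the enzyme itself.

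All 15 receptor partners and coregulators were tested and 0 passed in either cross, with medians of 0.09 and 0.14. The corepressor *Ncor1* differed by 0.12 in P-KO and 0.14 in R-Het mice. *Rxrg*, a retinoid X receptor, had the largest positive difference in P-KO mice (0.87, adjusted p = 0.156) and *Rxrb* the most negative (-0.09, adjusted p = 0.647), and in R-Het mice these were the coactivator *Ncoa2* (0.50, adjusted p = 0.294) and *Rxrg* (-0.10, adjusted p = 0.870).

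Genes that respond to T3 in other tissues were split in direction, 5 lower and 4 higher of 9 in each cross. *Bcl3*, a nuclear IκB protein that T3 induces in liver, fell in P-KO mice. It was at 6.55, 7.15 and 6.73 FPKM in P-Ctrl and at 4.02, 2.06 and 2.98 FPKM in P-KO mice, without overlap. Its difference of -0.99 (SE 0.18) passed at an adjusted p of 0.0479 (limma), and this call was kept in 2 of 12 alternatives and lost whichever mouse was left out (adjusted p 0.0716 to 0.138). In R-Het mice *Bcl3* was at 3.31, 2.22 and 2.98 FPKM against 3.85, 5.52 and 5.94 FPKM in R-WT mice, also without overlap, and did not pass. *Mbp*, myelin basic protein, had the largest positive difference in P-KO (0.98, adjusted p = 0.0986). In R-Het mice the extremes were the lipogenic gene *Thrsp* (-1.16, adjusted p = 0.164) and *Dbp* of the circadian clock (0.18, adjusted p = 0.815). The summed fat markers of all R-Het mice lay below those of all R-WT mice, and their part in the value of *Thrsp* was not tested.

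Of 10 genes that respond to T3 in bone 9 were tested, and all 9 had negative differences in P-KO mice, with a median of -0.53 beside 0.06 over all genes. Of these, 1 passed. This was *Bglap*, osteocalcin, which was at 8757, 11663 and 8789 FPKM in P-Ctrl and at 3364, 3156 and 1468 FPKM in P-KO mice, without overlap. The difference of -1.95 (SE 0.32) had an adjusted p of 0.0401 (limma) and lost its call whichever mouse was left out (adjusted p 0.0595 to 0.130). Reads of *Bglap* may be shared with its near-identical neighbours *Bglap2* and *Bglap3*, so its level is uncertain. *Fgfr1*, a receptor for fibroblast growth factors, had the smallest difference (-0.22, adjusted p = 0.356). *Bglap*, *Alpl*, *Col1a1* and *Spp1* of this list are also osteoblast markers.

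In R-Het mice 5 of the same 9 were lower and 4 higher, with a median of -0.46 beside 0.02. The measured macrophage and osteoclast markers summed to 4445 to 5847 FPKM in R-WT and 3010 to 3680 FPKM in R-Het mice, without overlap. Among them the osteoclast enzymes *Ctsk* and *Acp5* differed by -0.63 (adjusted p = 0.0859) and -0.65 (adjusted p = 0.0612), and the part of these cells in the list's median was not tested. *Mmp13*, the collagenase of hypertrophic cartilage and osteoblasts, fell from 1777, 1283 and 1585 FPKM in R-WT mice to 453, 295 and 383 FPKM in R-Het mice. The groups stood far apart, and the difference of -2.04 (SE 0.18, adjusted p = 0.0054, limma) kept its call in 11 of 12 alternatives. In this cross the alternatives of male libraries only and of leaving out R-WT 1 were the same fit. The 6 cartilage markers summed to 22.5 to 37.3 FPKM in R-WT and 33.5 to 73.4 FPKM in R-Het mice. *Fgfr1* was the highest of the list (0.20, adjusted p = 0.553). In P-KO mice *Mmp13* was at 809, 501 and 288 FPKM against 1599, 1063 and 1656 FPKM in P-Ctrl mice, a difference of -1.53 that did not pass (adjusted p = 0.0811).

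**Figure D3:**
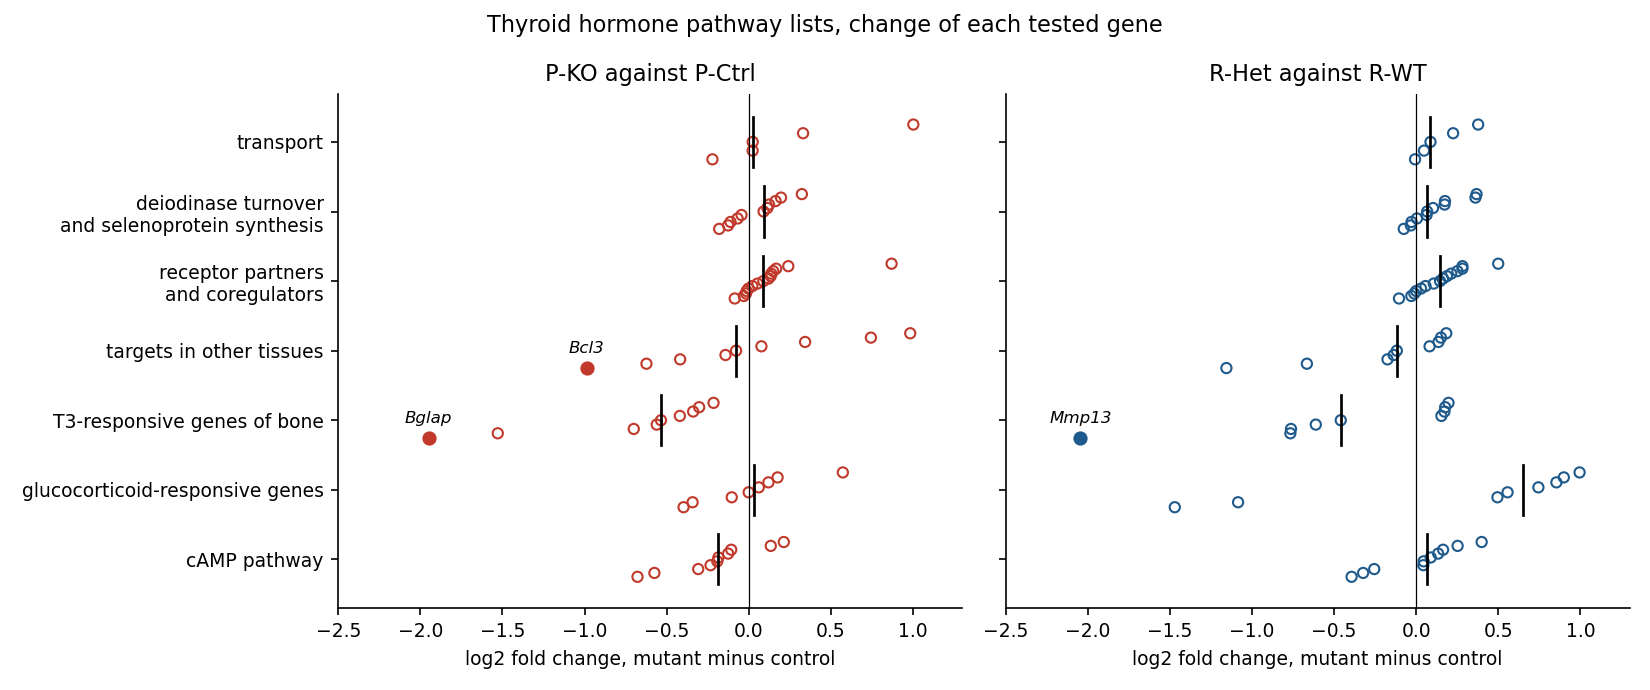
Difference in log2(FPKM + 1) between mutants and controls (x axis) of each tested gene in the 7 lists (y axis), for P-KO on the left and R-Het on the right. Filled and named points passed an adjusted p under 0.05, open points did not, and vertical bars are list medians. The genes that respond to T3 in bone have medians of -0.53 and -0.46, the glucocorticoid-responsive genes 0.03 and 0.65, and the other list medians lie between -0.19 and 0.14.

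As *Klf9* also answers to glucocorticoids and *Dio2* to cAMP, both pathways were described. Of 9 glucocorticoid-responsive genes 8 were tested and 0 passed in either cross. In R-Het mice 6 were higher and 2 lower with a median of 0.65 beside 0.02, and in P-KO mice the median was 0.03. *Tsc22d3*, the glucocorticoid-induced leucine zipper, was at 63.7, 63.8 and 83.9 FPKM in R-WT and at 95.2, 109 and 197 FPKM in R-Het mice. R-Het 3 was again the highest, as it was for *Per1* (22.2 FPKM beside 7.44 and 10.3 FPKM in the other R-Het mice), whose difference of 0.99 was the largest of the list (adjusted p = 0.191). The metallothionein *Mt2* went the other way (-1.47, adjusted p = 0.107). In P-KO mice the extremes were *Mt1* (-0.40, adjusted p = 0.576) and *Fkbp5* (0.57, adjusted p = 0.112).

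**Figure D4:**
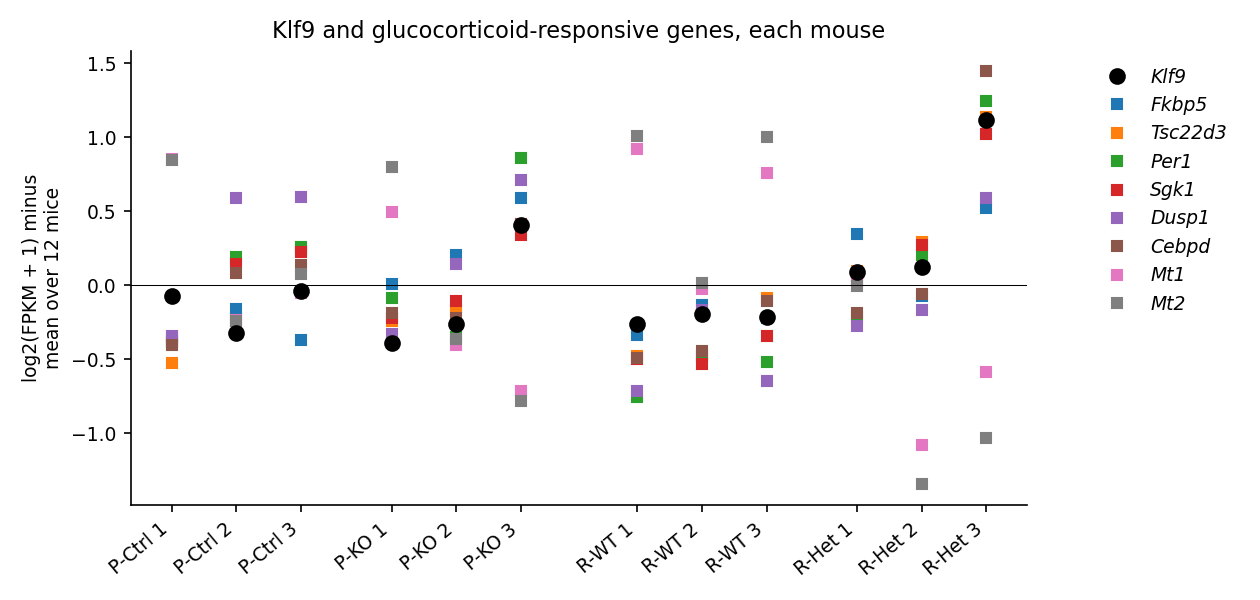
Level of *Klf9* (black circles) and of the 8 tested glucocorticoid-responsive genes (colored squares) in each mouse (x axis), as log2(FPKM + 1) minus the gene's mean over the 12 mice (y axis). *Klf9*, *Tsc22d3*, *Per1*, *Sgk1* and *Cebpd* were highest in R-Het 3, and *Mt1* and *Mt2* were below their means there.

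Of 14 genes of the cAMP pathway 10 were tested and 0 passed in either cross. In P-KO mice 8 were lower and 2 higher with a median of -0.19, between *Fos* (-0.68, adjusted p = 0.218) and *Crem* (0.21, adjusted p = 0.343). In R-Het mice 3 were lower and 7 higher with a median of 0.07, between *Fos* (-0.39, adjusted p = 0.277) and *Nr4a1* (0.40, adjusted p = 0.612). *Fos* and *Nr4a1* are immediate early genes.

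The genes whose levels followed *Dio2* most closely over the 12 mice were *Kcnj15* (r = 0.982) and *Kcnj2* (r = 0.976), both inward rectifier potassium channels, *Nkd2* (r = 0.959), an inhibitor of Wnt signalling, *Gpha2* (r = 0.958), the alpha subunit of thyrostimulin, and *Vill* (r = 0.937), a villin-like protein. *Kcnj15* ranged from 0.713 to 12.3 FPKM and *Gpha2* from 77.5 to 280.8 FPKM. All 5 were low in the 3 P-KO mice, which stand apart from the other 9, so these values of r rest in part on that gap. They are a description over 12 libraries that share a tissue and differ in depth. Taken as deviations from the 4 group means, *Kcnj15* and *Kcnj2* still had r = 0.903 and 0.951, and *Nkd2*, *Gpha2* and *Vill* had r = 0.725, 0.743 and 0.803.

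**Figure D5:**
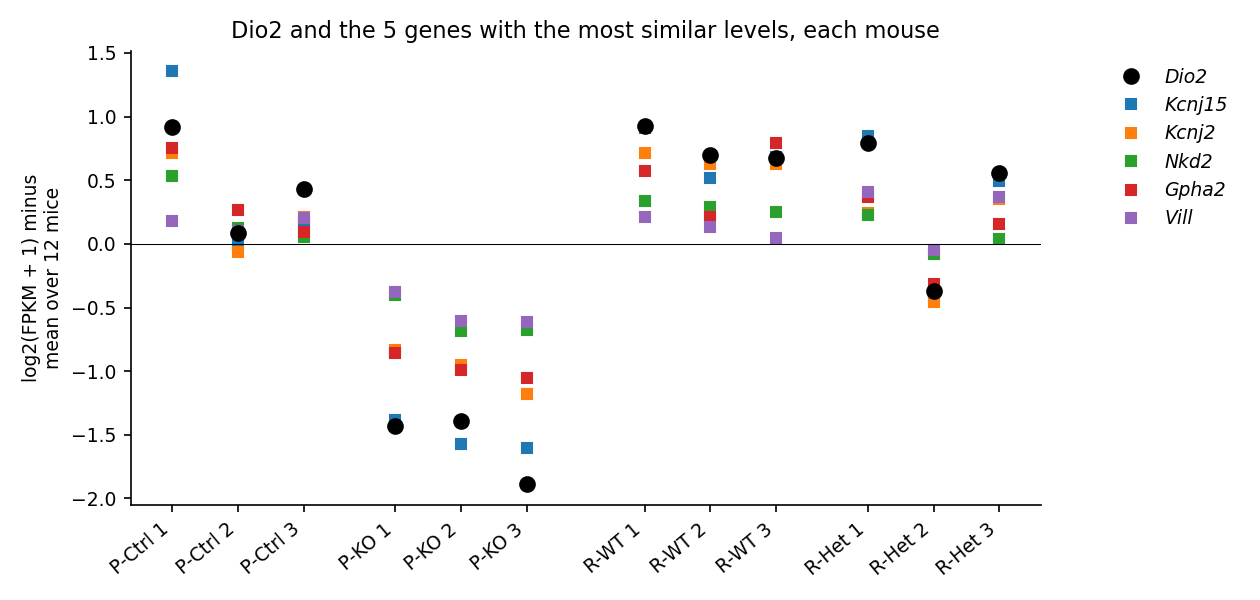
Level of *Dio2* (black circles) and of the 5 genes whose levels were most like it (colored squares) in each mouse (x axis), as log2(FPKM + 1) minus the gene's mean over the 12 mice (y axis). All 6 genes lie below their means in the 3 P-KO mice and in R-Het 2.

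For *Klf9* the most similar genes by level were *Ankrd29* (r = 0.923), *Ccn2* (r = 0.898), a matricellular protein, *Tsc22d3* (r = 0.894), *Cebpd* (r = 0.881) and *H2aj* (r = 0.878). Of these, *Tsc22d3* and *Cebpd* were on the glucocorticoid list. *Ccn2* reached 194 FPKM and *Cebpd* 45.0 FPKM at their highest, both in R-Het 3. *Klf9* and all 5 of these genes were highest in that mouse, so these values of r rest in part on it.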

How the data were processed

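Total RNA of calvaria from 12 mice (4 groups of 3) was sequenced after TruSeq preparation, and groups and replicate numbers were taken from the labels. The authors deposited a file per mouse that lists RefSeq transcripts with their FPKM. The submitters' processing notes name Bowtie 0.12.8 and the genome mm10. The program that estimated FPKM is not given in the sources used here, and the unit was read from the values, which sum to 891329 to 1068933 per mouse. Of 30411 transcripts, 29835 were named through the NCBI gene table of GRCm38 and 180 through GENCODE, and 396 kept their identifier. Deposited FPKM of the transcripts of a gene were summed. FPKM hold no counts, so counting intervals were not computed, and depth was estimated from the smallest values of transcripts of at least 2 kb.

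Genes that reached 1 FPKM in 3 or more mice (13059 genes) were tested on log2(FPKM + 1), which understates changes of low genes. Each cross was fitted on its own 6 mice with limma 3.58.1 (R 4.3.3, mean-variance trend, no covariate, Benjamini-Hochberg adjustment over all genes tested, adjusted p under 0.05 as a call), and the difference between the crosses by an interaction contrast in all 12 mice. The fit was tested on simulated data. Tables and figures used Python 3.11.15, pandas 2.3.3, numpy 2.4.6 and matplotlib 3.10.9.

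The members, lists and markers were chosen with earlier results of these data known. The genes named are the members, every list gene that passed, the gene of each list with the largest change in each direction per cross, *Nr1d1* and *Dio3os*, the 5 genes most like *Dio2* and *Klf9*, and *Med23*, *Runx2* and *Xist*. Others were named after their values were seen (*Wsb1*, *Ncor1*, *Tsc22d3*, *Dio1*, the other cross of a gene called in one, and single markers). Alternatives were a pseudocount of 0.1, no filter, median-ratio scaling, 1 fit of 12 mice, the replicate number as a block, male libraries only (*Xist* at most 1 FPKM) and each mouse left out. Neither batches nor dates are given.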

Additional observations from a re-analysis of the deposited data

Results flagged for a closer look

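Members and list genes with opposite shifts in the crosses were looked for. This meant all mutants below all controls in 1 cross and above them in the other, in either order. A gene that passed the interaction contrast would also have been flagged. Of all genes tested, 7.68% lay below and 19.6% above in P-KO, and 10.4% below and 10.7% above in R-Het mice. The share with opposite shifts was not computed, so nothing is read from the genes found. *Nr4a3*, a nuclear receptor induced by cAMP, met the rule, below in P-KO and above in R-Het mice. It was at 0.418, 0.408 and 0.361 FPKM in P-Ctrl and at 0.125, 0.128 and 0.316 FPKM in P-KO mice, and at 0.176, 0 and 0.124 FPKM in R-WT and at 0.226, 0.301 and 0.471 FPKM in R-Het mice. The change in P-KO minus that in R-Het was -0.51 on the scale of log2(FPKM + 1). The gene lay under the filter on low values, and without the filter the difference did not pass (limma interaction, SE 0.12, adjusted p = 0.132).

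*Secisbp2*, which binds the selenocysteine insertion element that deiodinase messages carry, met the rule in the same direction. It was at 3.89, 4.16 and 3.76 FPKM in P-Ctrl and at 3.18, 3.65 and 3.74 FPKM in P-KO mice, and at 4.06, 3.58 and 3.64 FPKM in R-WT and at 4.72, 4.27 and 4.13 FPKM in R-Het mice. The difference between the changes was -0.30 and did not pass (limma interaction, SE 0.13, adjusted p = 0.287).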

How the results depend on the processing

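The number of calls over all genes moved with the settings. In P-KO mice the 73 lower calls became 0 without the filter (881 lower at an unadjusted p under 0.05, limma), 190 with all 12 mice in 1 fit, 0 in male libraries only (725 lower at an unadjusted p under 0.05) and 0 to 13 with a mouse left out. The 132 higher calls became 1 without the filter, 53 with median-ratio scaling, 527 in 1 fit, 0 in males only (1428 higher at an unadjusted p under 0.05) and 0 to 22 with a mouse left out. In R-Het mice the 195 lower calls became 3 without the filter, 56 in 1 fit, 28 in males only and 28 to 135 with a mouse left out, and the 52 higher calls became 2, 6 in males only and 6 to 34 with a mouse left out. The 20 genes that differed between crosses became 6 without the filter and 2 to 164 with a mouse left out. The cause was not tested.

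Of the 2 list genes called lower in P-KO, 1 remained with a pseudocount of 0.1 (*Bglap*) and 0 without the filter, in males only or with any mouse left out (range 0 to 0), and 1 fit called 4 lower (*Bcl3*, *Bglap*, *Mmp13*, *Stat5a*) and 1 higher (*Mbp*). In R-Het the 1 called lower became 0 without the filter and 1 to 2 with a mouse left out (*Mmp13*, and *Tnfsf11* without R-Het 3). *Dio2*, whose call is not taken as a test, differed by -2.49 in P-KO in males only (1 P-Ctrl mouse) and by -2.24 to -1.83 with a mouse left out. The quotients of *Dio2* are log2 ratios of group means, not differences in log2(FPKM + 1), so they do not compare directly with these values. Relative to osteoblast markers the ratio was -1.43 in P-KO and 0.16 in R-Het, and relative to *Runx2* -1.85 and -0.51. Both scales were chosen after seeing the data. *Hr* moved to -0.87 with a pseudocount of 0.1 and *Thra* to 0.40 in males only, both in P-KO.

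The labels give replicate numbers but do not say whether they pair the mice, and the main fits were unpaired. Same-numbered deviations correlated at 0.180, 0.259 and 0.0528 in the *Med23* cross, where every mouse correlated best with its own number. In the other cross they correlated at 0.00482, -0.0474 and -0.0836. With the replicate number as a block, calls were 92 lower and 181 higher in P-KO, 69 lower and 21 higher in R-Het and 136 between crosses, and list calls were 2 lower (*Bglap* and *Col1a1*, while *Bcl3* lost its call at an adjusted p of 0.0536) and 1 higher (*Crym*) in P-KO and 3 lower (*Mmp13*, *Mt1*, *Mt2*) in R-Het.

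A share of each *Thra* transcript was not run, as the files list 1 transcript. At the estimated depth *Dio3*, *Dio3os* and the low values of *Hr* rest on few fragments. With 3 mice a group, uneven sexes and unequal muscle, levels of low genes are the least certain.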

Other observations

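The mice of a group also differed among themselves, and some genes followed *Dio2* or *Klf9* in these deviations from the 4 group means (12 mice, Pearson's r as a description, chosen as the highest of all genes tested). For *Dio2* they were *Mgat4a* (r = 0.959), a glycosyltransferase, *Kcnj2* (r = 0.951), *Zfp267* (r = 0.916), *Pip5k1b* (r = 0.916) and *Stra6* (r = 0.914), a receptor for retinol binding protein. *Stra6* ranged from 1.70 to 9.53 FPKM and differed by 0.05 in P-KO and by 0.49 in R-Het mice on the log2 scale. For *Klf9* they were the glucose transporter *Slc2a3* (r = 0.956), *Fmnl2* (r = 0.930), *Fam102b* (r = 0.926), the amino acid transporter *Slc38a2* (r = 0.919) and the growth factor *Nrtn* (r = 0.910), after 1 predicted gene or clone was passed over. *Slc38a2* ranged from 56.6 to 161.6 FPKM, with its highest value in R-Het 3. The r values rest on few mice and share the libraries of the members themselves.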
